A study of Drosophila melanogaster with 6 samples.

Results

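Mvl and mfrn encode metal transporters, and their transcripts were compared between the Drosophila melanogaster cell lines Kc167 and SL2 on 6 spotted cDNA arrays. They were chosen with earlier results of these data known, so their ranks and p-values below are descriptive. They were taken by their symbols in the platform annotation and are 2 of 2377 genes named on the array. Mvl (CG3671, chromosome arm 3R, 6 RefSeq transcripts) was carried by 1 clone and mfrn (CG4963, also 3R, 1 RefSeq transcript) by 2, each printed as 2 spots. The 6 spots belong to 8448 clones on 16896 spots, and the stretch of transcript that each clone covers was not analysed here. The Mvl clone gives 1 ratio, and which of the 6 transcript forms it detects is therefore not known here.

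Kc167 and SL2 are established, untreated lines of embryonic origin with features of blood cells. Both were kept as dense cultures at 22 °C with gentamicin at 20 µg/mL, Kc167 in a Schneider medium with 5% fetal bovine serum and SL2 in CCM3, so that line and medium cannot be told apart. Each array measured cDNA of one line against cDNA of the other: on 3 arrays the dye Cy5 marked Kc167 and Cy3 marked SL2, and on the other 3 the dyes were swapped. The labels number the arrays 1 to 3 in each orientation but name no separate cultures, so the p-values measure the spread between these arrays, which may be technical.

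Mvl (Malvolio) is the fly member of the NRAMP family, proton-coupled carriers that move divalent metal ions such as manganese and iron across the plasma membrane and the membranes of endosomes and phagosomes. The gene is named for a defect of taste behaviour in its mutants and is known to be expressed in fly macrophages as well as in neurons and Malpighian tubules. The gene mfrn encodes mitoferrin, a member of the mitochondrial carrier family in the inner membrane, which brings iron into the matrix for the synthesis of haem and iron-sulphur clusters. The proteins thus act at successive membranes on the path of iron from the outside of the cell to the mitochondrion.

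All values are log2 ratios of SL2 over Kc167, where a negative value means more transcript in Kc167. This direction is likely, not stated: SL2 stands first in the titles, and the labels do not define the ratio. If it were the reverse, every sign below would turn. The base of the logarithm is not given either. A base of 2 was assumed, and a natural base would enlarge each fold. The ratios compare whole cultures, in which fewer expressing cells and less RNA per cell cannot be told apart.

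The arrays gave values for 15104 to 16844 spots, and their number limits the precision. The array numbered 1 with SL2 in Cy5 stood apart, mainly from the arrays of the opposite orientation. Across clones its correlation with those arrays was r = 0.63 to 0.72, against 0.76 to 0.82 for the other pairs of opposite orientation. Within its own orientation it had r = 0.84 to 0.86, against 0.86 to 0.92 for the other pairs of the same orientation. The values of Mvl and mfrn without it are given with the results. Of 11 hemocyte markers, 4 were measured under their names, with ratios from -1.14 to 1.65. Such ratios do not show whether a line expresses a marker, so the label of a blood cell line was not checked.

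Transcripts of both transporters were more abundant in Kc167, by a factor of about 4 for Mvl and less than 2 for mfrn. All 12 spot values of Mvl and all 24 of mfrn were below 0. After averaging of spots and clones, both genes were below 0 on all 6 arrays, as were 24.1% of all features. The share was not counted over single spots. Both genes passed limma's test (Benjamini-Hochberg adjusted p under 0.05 over 7201 features) on the Kc167 side. This is read against a background in which 31.8% of features passed on that side and 60.2% in either direction.

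**Figure D1:**
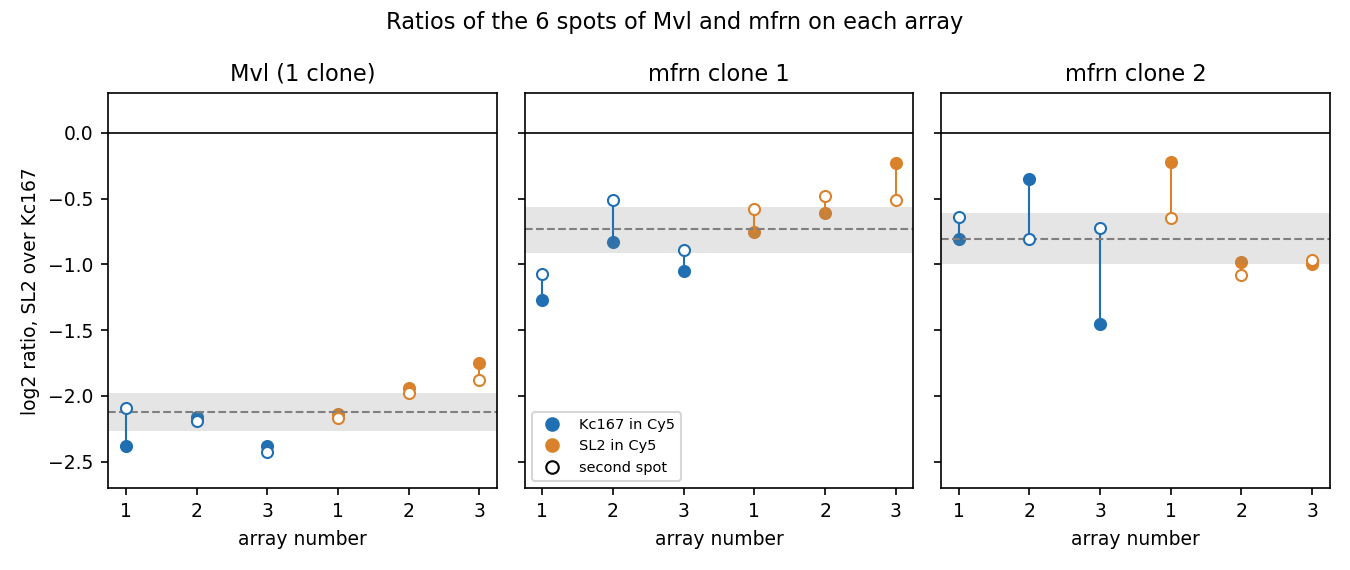
Log2 ratio of SL2 over Kc167 (vertical axis) for the 6 spots of Mvl and mfrn on each of 6 arrays (horizontal axis: array number within its dye orientation). Filled and open points are the first and second spot of a clone, the dashed line is the mean over 3 array pairs and the grey band its 95% confidence interval from limma. Every point lies below 0, and the points of Mvl lie below all those of mfrn.

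Mvl had ratios of -2.23, -2.18 and -2.40 with Kc167 in Cy5 and of -2.15, -1.96 and -1.81 with SL2 in Cy5. Every array thus gave a difference of more than 3-fold, and the 3 arrays with Kc167 in Cy5 were the lowest. The mean over the 3 array pairs was -2.12 ± 0.07 (SE, n = 3; 95% confidence interval -2.27 to -1.98), or 4.36-fold more transcript in Kc167 (3.93 to 4.83), with a limma adjusted p of 7.9e-09. The pair means were -2.19, -2.07 and -2.11, an SD of 0.06. Every SE here and below is limma's unless stated, in which variance is partly pooled over all features. From its own 3 pair means alone the SE of Mvl was 0.04. Without the array that stood apart, the ratio was -2.08 ± 0.06. Read as natural logarithms, the same values would stand for 8.36-fold.

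The 2 spots of the Mvl clone measured the same ratio closely. Their gap had a median size of 0.04 over the 6 arrays, against 0.14 over all clones and arrays. It was widest on the array numbered 1 with Kc167 in Cy5, where the spots gave -2.38 and -2.09. A gap wider than this one of 0.29 was seen in 21.6% of all spot pairs.

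Mvl lay near the Kc167 end of the table. It was number 12 of 2216 named genes counted from that end, and number 38 of 7201 features when clones without a gene name here were included. On the single arrays its place among the named genes ran from 9 to 18. Called differences of at least 2-fold on the Kc167 side were found for 76 named genes, or 3.43%, and Mvl is one of them while mfrn is not. This split depends on the assumed base: on a natural base 166 named genes, or 7.49%, would reach 2-fold, and mfrn would be among them.

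The gene mfrn had ratios of -0.95, -0.63 and -1.03 with Kc167 in Cy5 and of -0.55, -0.79 and -0.68 with SL2 in Cy5. The orientations overlapped, and no array came within 0.5 of 0. The mean was -0.77 ± 0.07 (SE, n = 3; 95% confidence interval -0.92 to -0.62), or 1.70-fold more transcript in Kc167 (1.54 to 1.89), with a limma adjusted p of 6.6e-06. Without the array that stood apart it was -0.80 ± 0.07. It was number 139 of the 2216 named genes from the Kc167 end, with places between 79 and 344 on the single arrays. On a natural base the ratio would stand for 2.16-fold.

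**Figure D2:**
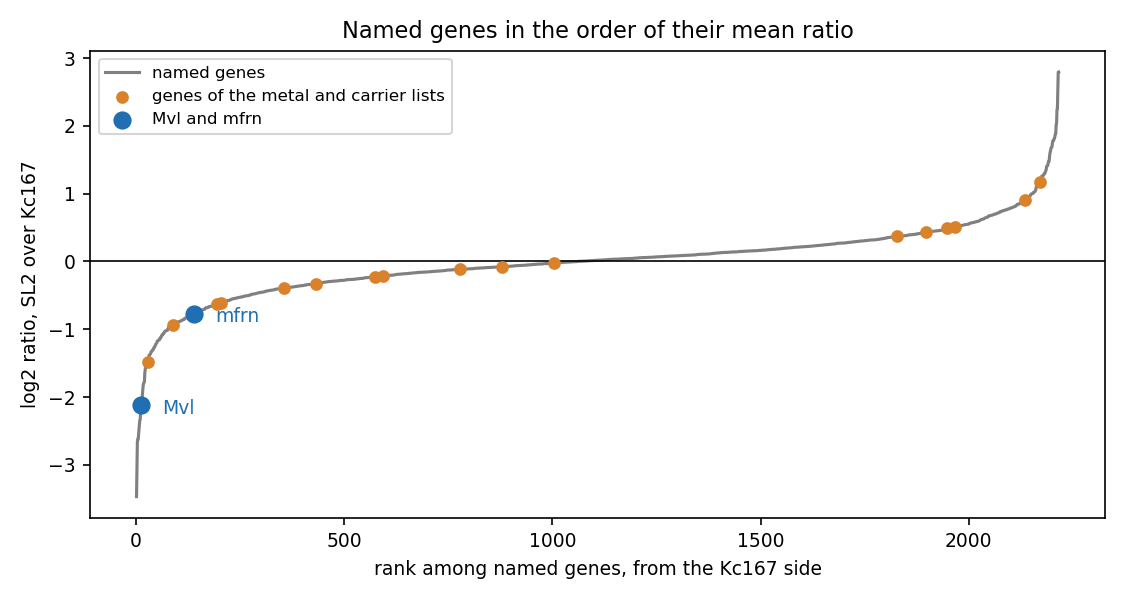
Mean log2 ratio of SL2 over Kc167 (vertical axis) of the 2216 named genes in the order of that ratio (horizontal axis: rank from the Kc167 side). Blue points are Mvl, at rank 12, and mfrn, at rank 139; orange points are the 17 measured genes of the metal and carrier lists, which spread over both sides of 0.

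The 2 clones of mfrn both lay on the Kc167 side. Clone 1 had -0.73 ± 0.08 (SE, n = 3; limma adjusted p = 2.0e-05 over 7581 clones) and clone 2 had -0.81 ± 0.09 (adjusted p = 2.4e-05). Each was below 0 on all 6 arrays, as were 23.6% of all clones, and 31.0% of clones passed on the Kc167 side. When each feature kept its own variance, neither clone passed (adjusted p = 0.055 for clone 1 and 0.069 for clone 2), while the mean of the clones did (adjusted p = 0.032). The SE was then 0.09 for clone 1 and 0.13 for clone 2.

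From array to array the clones did not move together. Clone 1 had -1.17, -0.67 and -0.97 with Kc167 in Cy5, and -0.66, -0.54 and -0.37 with SL2 in Cy5. Clone 2 had -0.73, -0.58 and -1.09 with Kc167 in Cy5, and -0.44, -1.03 and -0.99 with SL2 in Cy5. Clone 1 was closer to 0 on each array with SL2 in Cy5 than on any array with Kc167 in Cy5, and clone 2 showed no such order. The array that stood apart held the ratio of clone 2 closest to 0, and without it the means were -0.70 ± 0.08 for clone 1 and -0.90 ± 0.08 for clone 2.

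The difference of clone 1 minus clone 2 was 0.07 ± 0.37 (SD, n = 3 pairs), with pair values of -0.34, 0.20 and 0.36. It differed in sign between pairs, and an exact two-sided sign-flip test gave p = 0.75, where 3 values allow no p below 0.25. With Kc167 in Cy5 the difference was -0.14 ± 0.28 (SD, n = 3 arrays), and with SL2 in Cy5 it was 0.29 ± 0.45. On a single array the clones were between 0.09 and 0.62 apart.

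Among the 192 genes with exactly 2 measured clones, the size of the difference between clone means had a median of 0.24. For mfrn it was 0.07, and 85.9% of these genes had a larger one, but this rests on array pairs that went opposite ways. Without replicate 1 the clones of mfrn were at -0.64 and -0.92, a difference of 0.28 against a median of 0.22, and 38.0% of the genes had a larger one. Without the array that stood apart the difference was 0.20, and 52.6% had a larger one. In 61 of the 192 genes, or 31.8%, both clones passed in the same direction, as for mfrn, and in 4 genes they passed in opposite directions.

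**Figure D3:**
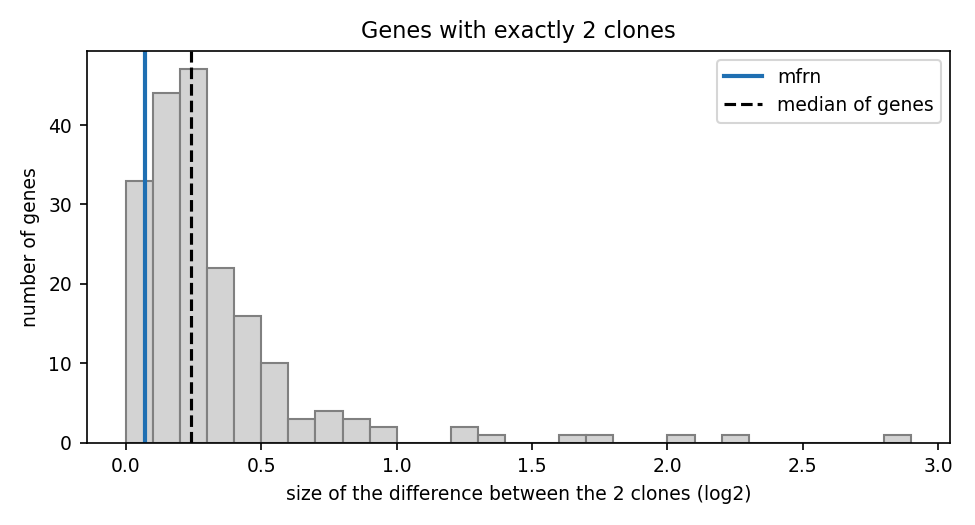
Number of genes (vertical axis) by the size of the difference between the mean log2 ratios of their 2 clones (horizontal axis), for the 192 genes with exactly 2 measured clones. The blue line marks mfrn at 0.07 and the dashed line the median of 0.24; without replicate 1 mfrn would stand at 0.28.

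The spots of clone 2 were the noisiest of the 3 clones. Their gap had a median size of 0.30 over the arrays, against 0.18 for clone 1. The widest gap was on the array numbered 3 with Kc167 in Cy5, where the spots gave -1.45 and -0.72. Of all spot pairs on all arrays, 2.38% differed by more than these. With only the first spot of each clone the ratio of mfrn was -0.80 ± 0.08, and with only the second it was -0.74 ± 0.08.

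The ratio of each transporter was compared between the dye orientations. The gap, SL2 in Cy5 minus Kc167 in Cy5, was 0.29 ± 0.15 for Mvl (SE, n = 3 pairs; 95% confidence interval -0.04 to 0.63), and the pairs gave 0.08, 0.22 and 0.59. By limma the gap of Mvl did not pass (adjusted p = 0.22), although its orientations did not overlap. They were separated narrowly, by arrays at -2.18 and -2.15, and the values of its single spots did overlap. Of all features, 9.46% passed this test and 36.1% had orientations that did not overlap. For mfrn the gap was 0.20 ± 0.15 (95% confidence interval -0.15 to 0.54; adjusted p = 0.43). Clone 1 had a gap of 0.41 ± 0.15 (adjusted p = 0.10) and clone 2 one of -0.02 ± 0.17 (adjusted p = 0.95), against 9.51% of clones that passed. The 95% confidence interval was 0.08 to 0.74 for clone 1 and -0.39 to 0.35 for clone 2. That of clone 1 thus excluded 0, although it is not adjusted for the number of clones tested. The orientations of clone 1 did not overlap, as was the case for 35.5% of clones. The nearest arrays of clone 1 were at -0.67 and -0.66, and the values of its single spots did overlap. The Cy5 channel was read at a laser power of 95 and a detector gain of 60 where Kc167 carried it, and at 100 and 66 where SL2 did. The part of these settings in the gaps was not tested.

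Within each orientation both transporters still differed between the lines. Mvl had -2.27 ± 0.12 (SD, n = 3 arrays) with Kc167 in Cy5 and -1.98 ± 0.17 with SL2 in Cy5. In the same order, mfrn had -0.87 ± 0.21 and -0.67 ± 0.12. The limma adjusted p for Mvl was 8.4e-07 and 3.6e-06, and for mfrn it was 2.6e-04 and 5.1e-04.

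The ratio of Mvl was further from 0 than that of mfrn on every array. The difference of Mvl minus mfrn was -1.35 ± 0.10 (SD, n = 3 pairs), with pair values of -1.44, -1.36 and -1.25, which is 2.56-fold between the ratios. On single arrays its size was between 1.13 and 1.60. The exact two-sided sign-flip test gave p = 0.25, the smallest p that 3 pair means allow. With the 6 arrays as separate values, chosen after seeing the data, the exact p was 0.031, the smallest that 6 values allow, but the labels do not say that the arrays hold separate RNA. This compares 2 ratios between lines and says nothing about which transcript was more abundant within a line.

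In the order of named genes, the neighbours of each transporter have ratios close to its own because they were chosen by rank. Next to Mvl stood fbp (-2.12 ± 0.07), the gene of fructose bisphosphatase, and Arc1 (-2.10 ± 0.10), which encodes a capsid-forming protein related to retrotransposon Gag. Next to mfrn stood sll (-0.77 ± 0.07), which encodes a transporter of the sulphate donor PAPS into the Golgi, and Galphaq (-0.77 ± 0.08), the gene of a G protein subunit. The 2 clones of Galphaq were 0.41 apart.

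Likeness over the 6 arrays was measured as the root mean square distance between log2 ratios, so it reflects mainly the size of the ratio. The named genes closest to Mvl were Glys, the glycogen synthase gene, at a distance of 0.31, then CG10863 at 0.31 and Cbs, whose product starts the transsulfuration of homocysteine, at 0.34. Their mean ratios were -2.33 ± 0.07, -1.97 ± 0.07 and -2.40 ± 0.07. Closest to mfrn were CG4452 and CG32512, each at 0.12, and sowah at 0.13, with ratios of -0.76 ± 0.07, -0.82 ± 0.07 and -0.79 ± 0.06. The 2 clones of sowah were 0.84 apart, so its mean averages unlike clones and its SE does not hold their difference.

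On the chromosome, neither transporter had a measured neighbour on the same side. Among the 5 annotated genes on each side of Mvl, only AnxB9, an annexin gene 2 places away, was measured under its name. AnxB9 had 0.29 ± 0.08 and lay on the SL2 side (limma adjusted p = 0.0082), but without replicate 3 it did not pass (0.23; adjusted p = 0.061). Around mfrn the only measured gene was its direct neighbour Gp93, which encodes the Hsp90 family member of the endoplasmic reticulum, with 0.56 ± 0.08 (adjusted p = 2.8e-04). The 539 named genes of arm 3R had a median of -0.01, and 156 of them passed in each direction.

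Other genes of metal handling and of the mitochondrial carrier family went both ways. Of 126 genes in 4 lists, 112 were matched to a current symbol and 17 were measured under it on all arrays. Of the 17, 7 passed on the Kc167 side, 6 on the SL2 side and 4 did not pass. Their median ratio was -0.12, against 0.018 for all named genes and -0.022 for all features. Over all named genes 28.7% passed on the Kc167 side and 30.5% on the SL2 side. The counts were the same without the array that stood apart, and with each feature's own variance they were 2 and 4. The shares above are from the main fit and are not the background of these counts. With each feature's own variance fewer features passed over the whole table too, as given in the closing section. No list gene had a ratio below that of Mvl, and 2 lay between Mvl and mfrn. None of the 17 passed the test between dye orientations by limma, which 9.46% of all features passed. With 17 genes, this count cannot be set apart from that share.

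In the list of iron uptake, storage and export, 1 gene of 15 was measured. Zip99C encodes a ZIP family protein that moves iron into the secretory pathway in flies. Its lowest, median and highest array values were 0.31, 0.50 and 0.69, so every array placed it on the SL2 side, opposite to Mvl and mfrn. Its mean was 0.51 ± 0.07 (SE, n = 3; limma adjusted p = 1.5e-04). Ferritin, transferrin and iron regulatory protein genes were not among the genes measured under a name here.

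Of the list of copper and zinc transport, metallothioneins and superoxide dismutases, 5 of 32 genes were measured. Sod2, the gene of the manganese superoxide dismutase of mitochondria, had array values from 0.62 to 1.20 and a mean of 0.90 ± 0.07 (limma adjusted p = 2.1e-06), on the SL2 side. Ccs, the gene of the copper chaperone of the cytosolic dismutase, lay on that side too with 0.37 ± 0.07 (adjusted p = 0.0011). Its ratio was 0.22 with Kc167 in Cy5 alone, where it did not pass (adjusted p = 0.088). Catsup, a ZIP family zinc transporter gene also known for restraining catecholamine synthesis, was on the Kc167 side with -0.39 ± 0.07 (adjusted p = 8.5e-04). MTF-1, the gene of the metal-responsive transcription factor, had -0.12 ± 0.07 and did not pass, and Sod3, the gene of the extracellular dismutase, had -0.22 ± 0.11 and did not pass either. The ratio of MTF-1 turned to 0.17 (adjusted p = 0.066) when the median of the 24 nearest clones in spot order was subtracted. Sod3 had 0.46 on the array numbered 2 with Kc167 in Cy5 and was below 0 on the others. Its ratio was -0.05 with Kc167 in Cy5 alone (adjusted p = 0.82) and -0.39 with SL2 in Cy5 alone (adjusted p = 0.028). Without replicate 1 it was -0.06 (limma adjusted p = 0.64), and without replicate 2 it was -0.38 (adjusted p = 5.6e-04). With replicate 2 left out, limma's SE was 0.1 for Mvl and for Arc1 alike, so this p does not measure the spread of Sod3.

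Iron that mitoferrin brings in serves the assembly of iron-sulphur clusters, and 3 of 33 genes of that list, which also holds haem synthesis, were measured. Nfs1, the gene of the cysteine desulfurase that supplies the sulphur, had array values between -1.03 and -0.86 and a mean of -0.94 ± 0.07 (limma adjusted p = 1.5e-06), so it lay on the Kc167 side like mfrn. The gene bcn92, whose product is the fly relative of the small partner protein of that desulfurase, lay on the opposite side. Its array values ran from 0.82 to 1.78 and its mean was 1.17 ± 0.07 (adjusted p = 5.1e-07). The ranges of these genes of one complex did not overlap. Mms19, which takes part in handing clusters to target proteins, had -0.23 ± 0.07 (adjusted p = 0.014), on the Kc167 side. Mms19 did not pass with Kc167 in Cy5 alone (-0.17; adjusted p = 0.14) or without replicate 1 (-0.19; adjusted p = 0.065). The 2 clones of Mms19 were 0.30 apart.

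Of 46 other genes of the mitochondrial carrier family, to which mfrn belongs, 8 were measured on all arrays, and CG2616 and Slc25A46b lacked values on some. On the Kc167 side were 4. CG1628 had array values from -1.73 to -1.20 and the largest ratio of the list, -1.48 ± 0.07 (2.78-fold; limma adjusted p = 9.8e-08). Dic1, the gene of a dicarboxylate carrier, had -0.61 ± 0.07, CG18324 -0.63 ± 0.12 and CG7943 -0.33 ± 0.09. CG18324 was at 0.39 on the array numbered 1 with Kc167 in Cy5 and below 0 on the others. It did not pass with Kc167 in Cy5 alone (-0.34; adjusted p = 0.20) or from the first spot alone (-0.38; adjusted p = 0.092). CG7943 did not pass with SL2 in Cy5 alone (-0.23; adjusted p = 0.086) or without replicate 2 (-0.22; adjusted p = 0.057).

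On the SL2 side were 2 carrier genes. GC2, the gene of a glutamate carrier, had 0.49 ± 0.07 (limma adjusted p = 1.4e-04), and CG8026 had 0.43 ± 0.07 (adjusted p = 5.2e-04). CG8026 did not pass with SL2 in Cy5 alone (0.23; adjusted p = 0.070). Dic3 had -0.08 ± 0.06 and Ucp4C, the gene of an uncoupling protein, -0.02 ± 0.08, and neither passed. Ucp4C had 0.16 with SL2 in Cy5 alone and 0.06 without replicate 3. It passed on the Kc167 side (-0.22; adjusted p = 0.026) when the median of the nearest clones was subtracted. The ratio of mfrn thus lay within the range of its own family, between CG1628 and CG18324.

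**Figure D4:**
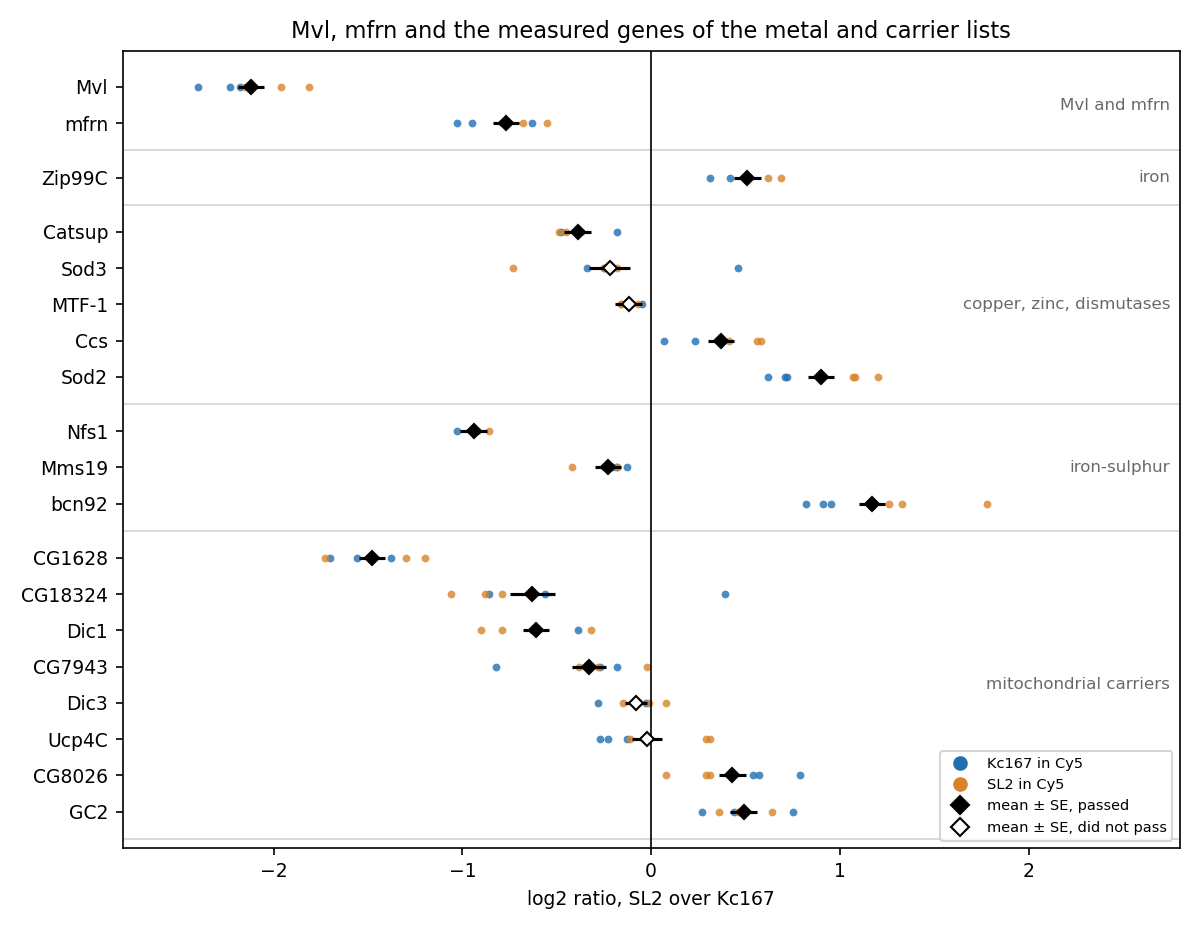
Log2 ratio of SL2 over Kc167 (horizontal axis) for Mvl, mfrn and the 17 measured genes of the 4 lists (vertical axis, grouped by list). Small points are the 6 arrays by dye orientation, and diamonds are means over 3 array pairs with limma's SE, filled where the adjusted p was under 0.05. Mvl lies furthest on the Kc167 side and bcn92 furthest on the SL2 side.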

How the data were processed

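The deposited values are log ratios, 1 per spot and array, and were read as log2. Per the labels, slides were quantified with QuantArray version 3 without background subtraction, and the authors derived the ratio from normalised data. The sources used here do not give the normalisation, log base or direction. Intensities were not used, so dim spots were not filtered. Columns of opposite orientation correlated positively, so no sign was changed.

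Of 16896 spots, 5666 had 1 symbol and 152 several. Symbols were updated by Entrez identifier through the RefSeq table of Release 6, which was used only for names, transcript counts and gene order. Spots of a clone were averaged, then clones of a gene. A feature needed values on all 6 arrays, which left 7201 features, 4985 of them unnamed clones. Same-numbered arrays of both orientations were averaged, and the 3 means were tested against 0 with lmFit and eBayes (limma 3.58.1, R 4.3.3; 2 residual and 7.57 prior degrees of freedom), two-sided, Benjamini-Hochberg adjusted over all features at 0.05. Clones and orientation gaps were fitted the same way. The test of the 3 means was tried on simulated independent values. The averaging, clone and orientation steps were not simulated.

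The members and lists were chosen with earlier results of these data known. Genes named were the members, all measured list genes, the 3 most alike, the neighbours in rank, and the measured genes among the 5 nearest on each side. Figures used matplotlib 3.10.9.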

Additional observations from a re-analysis of the deposited data

How the results depend on the processing

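Under 18 alternatives each, the ratio of Mvl ran from -2.27 to -1.98 and that of mfrn from -0.87 to -0.67, and both stayed on the Kc167 side and passed, with largest adjusted p of 0.021 and 0.032, without limma's pooling of variance. Without that pooling, clone 1 of mfrn (-0.73) and clone 2 (-0.81) did not pass. Leaving out each replicate gave -2.15 to -2.09 for Mvl and -0.80 to -0.73 for mfrn. For clone 1 it gave -0.79 to -0.64 and for clone 2 -0.92 to -0.69. Each of these fits held 2 pair means, so its p-value rests largely on variance pooled over features. The orientation gap of clone 2 ran from -0.17 to 0.19 and turned sign without replicate 2, and the clone difference ran from -0.07 to 0.28. Without pooling, 1926 features passed in place of 4332, 988 on the Kc167 side and 938 on the SL2 side. Among named genes alone, where fewer were tested, 1337 passed, 648 and 689. Same-numbered arrays did not deviate together from their orientation means (r = -0.07, 0.10 and -0.09). Differently numbered arrays of opposite orientation gave r from -0.17 to 0.19. These values do not show whether same-numbered arrays share RNA, so the pairs used in the tests rest on the array numbers alone. With the replicate block, 4409 features passed, Mvl had -2.12 and mfrn -0.77. The ratio of MTF-1 turned to 0.17 with the nearest clones' median subtracted. That of Ucp4C turned to 0.16 with SL2 in Cy5 alone and ran from -0.08 to 0.06 over the replicates left out. None of these 4 reversed values passed, nor had the reported ones. Of the 29 other named genes, 10 that had passed did not pass without pooling of variance, and 3 gave no value from a single spot of each clone. The list counts by setting were added after the data were seen. Missing intensities limit what can be said of dim spots.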
